A study of Mus musculus with 7 samples.

Results

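The genes of the cap'n'collar (CNC) basic leucine zipper factors and of their small Maf partners were followed in heart tissue of 4 NTG and 3 mNrf2-TG mice. Members were chosen by name: the activators Nfe2l1, Nfe2l2 and Nfe2l3, the repressors Bach1 and Bach2, and the small Mafs Maff, Mafg and Mafk. Of these 8 genes, 7 were matched by symbol among the 14641 genes of the count table, and Nfe2l3 was not analysed here. The mNrf2-TG mice carried full-length mouse Nrf2 driven by the αMHC promoter, which acts in cardiomyocytes, and NTG mice were littermates without the transgene. All mice were male and on a C57BL/6J background. The labels give an age of 6 months for mNrf2-TG and none for NTG, the methods give 6 to 7 months for both groups, and the design text gives 7 to 8 months for both. Each mouse gave 1 library, and p-values therefore set the difference of the groups against the spread between mice.

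CNC factors do not bind DNA alone. Each pairs with a small Maf, which has a leucine zipper and binds DNA but lacks an activation domain, and the pair binds the antioxidant response element (ARE). Nrf2 (Nfe2l2) and Nrf1 (Nfe2l1) carry activation domains, whereas Bach1 and Bach2 recruit repressing complexes to overlapping sites, so that CNC activators and repressors share one set of partners. Nrf2 is held low by Keap1 and Cul3, Nrf1 is processed at the endoplasmic reticulum, Bach1 is degraded when it binds heme, and Bach2 is known mainly from lymphocytes. Small Mafs that pair with each other block the element.

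Between 6534684 and 8405857 reads per NTG library and between 6953122 and 8060644 reads per mNrf2-TG library were counted on the listed genes. Counting error alone gave a coefficient of variation of 0.9% to 1.4% for Nfe2l2 and Nfe2l1 in mNrf2-TG and of 13.2% to 14.2% for Bach2, the member with the fewest reads. Cardiomyocyte markers summed to 639200 to 669800 normalized counts in NTG hearts and 542000 to 559100 with the transgene, and 4 of 8 were lower at an adjusted p under 0.05. Fibroblast markers (4 of 6 higher; sums 8385 to 10850 and 12160 to 13050) and macrophage markers (4 of 6 higher; sums 1745 to 2277 and 2829 to 3826) were higher in mNrf2-TG. In heart tissue of mixed cells, fewer cells of a type and less RNA per cell cannot be told apart. The part of cell composition in the changes below was not tested.

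Sequence around the start sites was read to see which members carry the core of the ARE there, since the transgene raises the factor that binds it. Windows of 250 bases before to 50 bases after each annotated start, 300 bases in all, came from RefSeq (GRCm38.p6) and were found for the 7 members. The letters TGACNNNGC (ARE core), TGANTCA (AP-1) and TGACGTCA (cyclic AMP response element) were searched on both strands, and no site of one overlapped a site of another in the member windows. The ARE core was present in 1 window each of Nfe2l2, Maff, Mafg and Mafk. Of all 32851 windows, 12.4% held TGACNNNGC, 7.8% held TGANTCA and 1.8% held TGACGTCA. The 5 windows with a match are printed from 5′ to 3′ on the strand of the gene, with the matched letters in capitals.
Nfe2l2 (chr2:75704614-75704913, minus strand): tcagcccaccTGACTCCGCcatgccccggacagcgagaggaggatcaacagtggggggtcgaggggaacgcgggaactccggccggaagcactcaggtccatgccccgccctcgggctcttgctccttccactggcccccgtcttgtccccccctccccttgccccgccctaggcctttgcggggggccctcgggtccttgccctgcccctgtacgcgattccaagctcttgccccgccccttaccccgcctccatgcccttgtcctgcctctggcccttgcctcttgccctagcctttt
Maff (chr15:79346371-79346670, plus strand): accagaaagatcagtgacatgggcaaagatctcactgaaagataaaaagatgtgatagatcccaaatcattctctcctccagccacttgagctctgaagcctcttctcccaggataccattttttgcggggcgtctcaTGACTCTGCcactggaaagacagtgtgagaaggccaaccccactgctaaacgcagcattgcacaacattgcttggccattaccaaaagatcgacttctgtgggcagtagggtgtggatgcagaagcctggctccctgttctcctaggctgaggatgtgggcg
Maff (chr15:79347270-79347569, plus strand): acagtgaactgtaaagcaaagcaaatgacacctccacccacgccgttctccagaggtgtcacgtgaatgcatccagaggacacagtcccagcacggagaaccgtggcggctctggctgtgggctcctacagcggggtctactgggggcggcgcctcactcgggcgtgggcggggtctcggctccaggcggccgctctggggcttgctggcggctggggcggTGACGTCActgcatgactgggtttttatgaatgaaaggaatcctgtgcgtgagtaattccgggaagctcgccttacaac
Mafg (chr11:120633498-120633797, minus strand): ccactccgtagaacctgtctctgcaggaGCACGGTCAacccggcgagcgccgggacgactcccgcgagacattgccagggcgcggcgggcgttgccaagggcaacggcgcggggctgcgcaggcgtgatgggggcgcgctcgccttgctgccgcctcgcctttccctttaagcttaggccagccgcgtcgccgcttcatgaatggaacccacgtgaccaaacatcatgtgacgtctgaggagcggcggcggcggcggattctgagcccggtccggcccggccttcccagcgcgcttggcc
Mafk (chr5:139791286-139791585, plus strand): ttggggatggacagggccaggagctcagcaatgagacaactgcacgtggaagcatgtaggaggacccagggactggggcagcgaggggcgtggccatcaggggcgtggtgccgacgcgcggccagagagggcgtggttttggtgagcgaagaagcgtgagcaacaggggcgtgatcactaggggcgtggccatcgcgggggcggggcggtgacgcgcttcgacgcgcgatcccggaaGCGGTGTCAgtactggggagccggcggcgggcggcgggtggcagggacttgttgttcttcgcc

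In these windows the site TGACTCCGC of Nfe2l2 began at -240, where negative numbers count bases before the start, and the site TGACTCTGC of Maff at -112. The Mafg and Mafk sites lie on the other strand and read GCACGGTCA from -222 and GCGGTGTCA from -13. A second Maff start held TGACGTCA at -29. The letters searched were not found in the 5 windows of Nfe2l1, the third window of Maff, or the single windows of Bach1 and Bach2. A match describes the letters and is no evidence of binding.

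In mNrf2-TG hearts, 3 of the 7 members changed at an adjusted p under 0.05 in edgeR's quasi-likelihood test: Nfe2l2 and Mafg rose and Maff fell. Across all 14637 genes tested, 17.2% passed this threshold, 8.48% higher and 8.73% lower. Normalized counts of the groups did not overlap for the same 3 members, against 29.7% of all genes. Nfe2l2 and Maff also passed an unadjusted p under 0.05 with a change over 2-fold, which 5.65% of all genes did. Nfe2l1, Bach1, Bach2 and Mafk did not pass, although the unadjusted p of Nfe2l1 and Bach1 was under 0.05. The members had a median Log2FC of 0.19, and all genes one of 0.00.

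**Figure D1:**
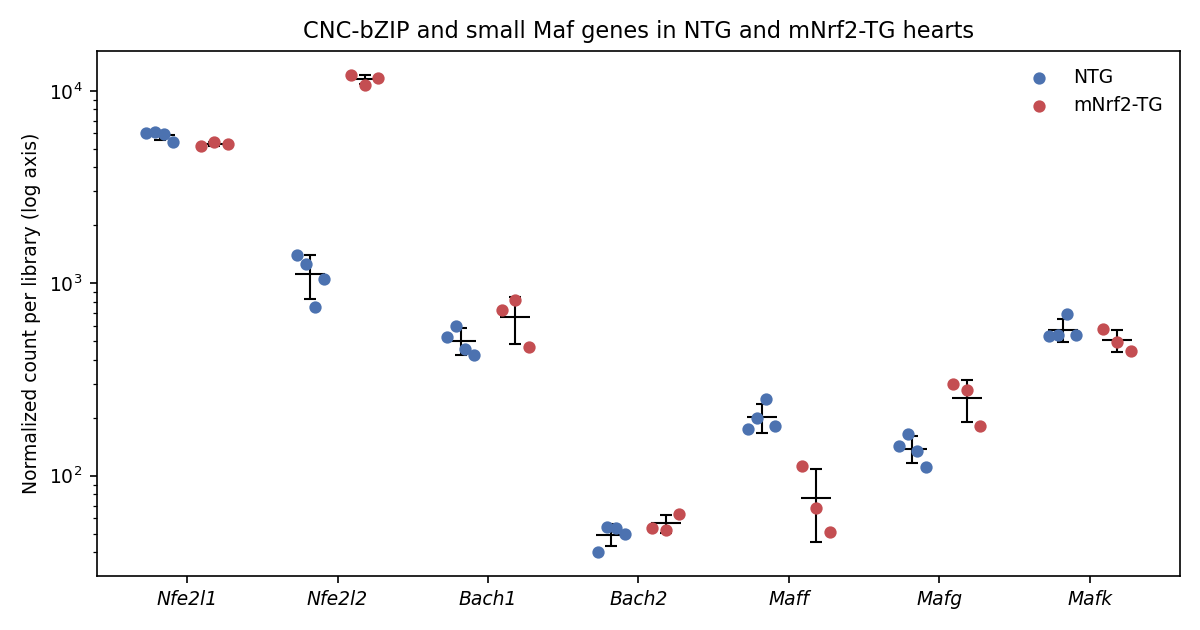
Normalized counts (log axis) of the 7 members, with 1 point per library, NTG in blue (4) and mNrf2-TG in red (3), and black bars giving mean ± SD. The groups are apart for Nfe2l2, Maff and Mafg, and they overlap for Nfe2l1, Bach1, Bach2 and Mafk.

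Among the activators, Nfe2l2 is the gene of the transgene and served as the check of the labels. Its normalized counts (TMM-scaled to the mean library size) were 1402, 1253, 751.7 and 1050 in NTG 1 to 4 and 12030, 10750 and 11650 in mNrf2-TG 17 to 19. The gene (Entrez 18024) lies on chr2:75675513-75704641 of GRCm38, minus strand. Every mNrf2-TG library lay far above every NTG library. The Log2FC was 3.36 (standard error 0.18, adjusted p = 2.96e-06), a 10.3-fold rise with an interval of 8.11 to 13.1 (95% confidence). Reads of the transgene and of the resident gene were counted together and cannot be told apart. The spread between mice was wider in NTG than in mNrf2-TG, with coefficients of variation of 25.3% and 5.7%, and NTG 3 held the lowest value. Leaving out single libraries moved the Log2FC between 3.22 and 3.50.

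Nfe2l1 (Entrez 18023, chr11:96817414-96829968, minus strand) encodes Nrf1, the CNC factor that controls proteasome genes. Its normalized counts were 6027, 6081, 5935 and 5401 in NTG and 5139, 5403 and 5294 in mNrf2-TG. The groups met at 1 point, since NTG 4 lay just under mNrf2-TG 18. The Log2FC of -0.15 (standard error 0.065) had an unadjusted p of 0.0425 and an adjusted p of 0.14 in edgeR and did not pass. Nfe2l1 varied least of the members, by 5.3% in NTG and 2.5% in mNrf2-TG. The means were 5861 ± 312 (SD, n = 4) and 5279 ± 133 (SD, n = 3), and the 95% interval of the fold was 0.825 to 0.984.

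Bach1 (Entrez 12013, chr16:87698945-87733346, plus strand), the heme-responsive repressor that occupies AREs, had 528.7, 602.1, 456.8 and 424.1 normalized counts in NTG hearts and 728.4, 814.8 and 463.8 in mNrf2-TG. Libraries 17 and 18 lay above all NTG libraries, whereas library 19 lay among them. The means were 503 ± 79.2 and 669 ± 183, and the Log2FC of 0.41 (standard error 0.18, adjusted p = 0.152, edgeR) did not pass. Without mNrf2-TG 19 the Log2FC was 0.62 with an adjusted p of 0.0247, and over all alternatives the adjusted p ran from 0.0247 to 0.451. The call on Bach1 thus rests on 1 library.

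Bach2 (Entrez 12014, chr4:32238804-32586108, plus strand), the repressor best known from B cells, had the lowest level per length of the 7 members, at percentile 24.2 of all genes in NTG and 24.7 in mNrf2-TG. It had 40.23, 54.0, 53.62 and 49.78 normalized counts in NTG hearts and 53.8, 52.22 and 63.54 in mNrf2-TG, and the groups overlapped. The Log2FC was 0.19 (standard error 0.16, adjusted p = 0.463, edgeR), with an interval of the fold from 0.913 to 1.43. Its variation between NTG mice, 13.0%, was below the 14.2% that counting error alone gives. B cell markers summed to 9.90 to 15.9 normalized counts in NTG hearts and 5.45 to 21.5 with the transgene, and 0 of the 4 tested passed. The antisense gene Bach2os overlaps Bach2, and reads of the pair cannot be told apart where strand was not used.

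Maff (Entrez 17133, chr15:79346621-79359076, plus strand), the small Maf known for its induction by stress and cytokines, was the member that fell. Its normalized counts were 175.8, 198.9, 250.6 and 181.2 in NTG and 111.9, 67.98 and 50.83 in mNrf2-TG. Every mNrf2-TG library lay below the lowest NTG library, with NTG 3 highest and mNrf2-TG 19 lowest. The fold was 0.378 (interval 0.274 to 0.521, adjusted p = 0.00452, edgeR). The mNrf2-TG mice varied by 41.0%, against 11.4% from counting error alone. Leaving out single libraries gave a Log2FC from -1.77, without mNrf2-TG 17, to -1.17, without mNrf2-TG 19, and the call held each time.

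Mafg (Entrez 17134, chr11:120625117-120633600, minus strand), a main partner of Nrf2, rose. It had 142.5, 165.6, 135.1 and 110.5 normalized counts in NTG hearts and 299.1, 277.8 and 181.5 in mNrf2-TG. The groups did not overlap, though mNrf2-TG 19 lay close to NTG 2. The fold was 1.82 (interval 1.42 to 2.33, adjusted p = 0.0114, edgeR). Without mNrf2-TG 17 the Log2FC was 0.73 and the adjusted p 0.0529, so that the call was lost, and without mNrf2-TG 19 it was 1.06. Mafg shares 124 bases of exon with Sirt7 on the same strand, and 1.34% of its 50-base stretches also occur there.

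Mafk (Entrez 17135, chr5:139791513-139802653, plus strand), the third small Maf, did not pass. Its normalized counts were 529.8, 536.4, 688.8 and 537.6 in NTG and 575.6, 494.6 and 443.9 in mNrf2-TG, and the ranges overlapped. NTG 3 stood above the other NTG libraries, which lay close together. The Log2FC was -0.18 (standard error 0.12, adjusted p = 0.321, edgeR), and the interval of the fold ran from 0.748 to 1.04. Its exons overlap 169 bases of Tmem184a on the opposite strand, and since the use of strand in counting is not given, reads there cannot be told apart.

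The deposited rlog values, which shrink differences of genes with few reads, differed between the group means in the same directions: by 2.26 for Nfe2l2, 0.46 for Mafg, 0.24 for Bach1, 0.07 for Bach2, -0.10 for Nfe2l1, -0.11 for Mafk and -0.69 for Maff.

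**Figure D2:**
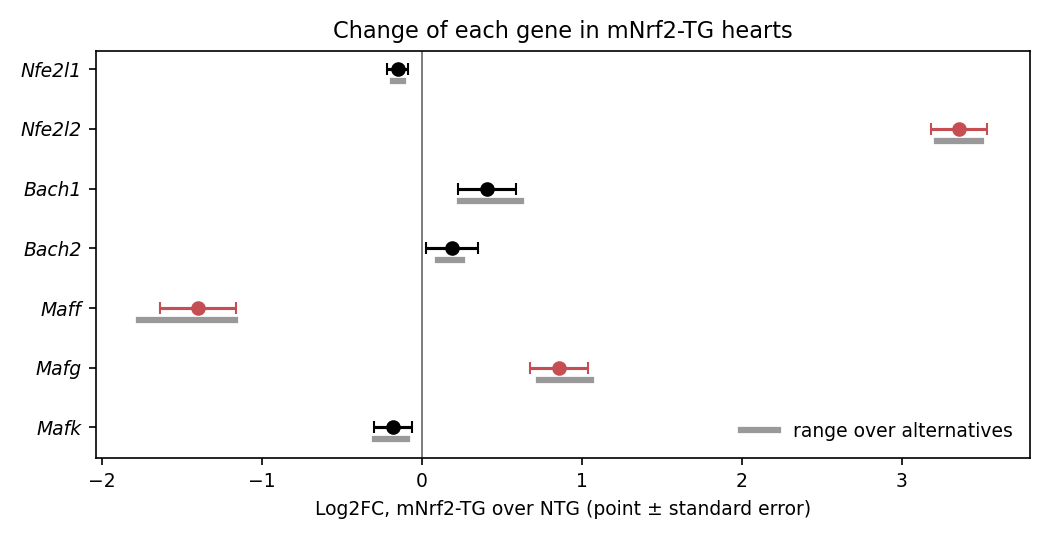
Log2FC of mNrf2-TG over NTG for each member, with the point and standard error of edgeR's test and a grey bar for the range over 14 alternatives. Red points (Nfe2l2, Maff, Mafg) had an adjusted p under 0.05, and no grey bar crosses 0.

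Members of these families were next compared with each other per length, as reads per kilobase of merged exons at a fixed library size (RPKM on the TMM scale). In NTG hearts Nfe2l1 was highest at 143 ± 7.66, followed by Nfe2l2 at 39.0 ± 9.85, Mafk at 19.5 ± 2.63, Bach1 at 10.8 ± 1.71, Maff at 10.3 ± 1.75, Mafg at 3.28 ± 0.538 and Bach2 at 0.660 ± 0.0856 (SD, n = 4). Neighbours in this order did not overlap except Bach1 and Maff, each of which was the higher in 2 of 4 libraries. Nfe2l1 stood 3.67 times above Nfe2l2, and at percentile 98.0 of all genes. The order depends on the length used: per coding length Mafk (163) lay above Nfe2l2 (82.7), and Maff (57.2) and Mafg (37.8) above Bach1 (30.1).

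In mNrf2-TG hearts Nfe2l2 came first at 402 ± 23.0 and Nfe2l1 second at 129 ± 3.24 (SD, n = 3). Mafk at 17.2 ± 2.27 and Bach1 at 14.4 ± 3.93 overlapped. Mafg at 5.98 ± 1.48 and Maff at 3.94 ± 1.61 had overlapping ranges, but Mafg was the higher in 3 of 3 libraries, where in NTG Maff was the higher in 4 of 4. Bach2 was last at 0.755 ± 0.0818. Per coding length Mafg (69.1) lay above Bach1 (40.1) here too. Among all genes, Maff moved from percentile 74.5 to 53.1, Mafg from 48.9 to 63.1 and Nfe2l2 from 92.7 to 99.3.

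The composition of the CNC pool followed from these levels. Nfe2l1 made up 70.7% to 79.7% of the summed CNC level in NTG and 22.3% to 25.1% in mNrf2-TG. Nfe2l2 made up 14.5% to 23.6% and 71.5% to 74.8%. The share of Bach1 was 5.57% ± 0.504 in NTG and 2.64% ± 0.764 in mNrf2-TG, although its own level was not lower, and the share of Bach2 was 0.344% ± 0.0599 and 0.138% ± 0.0145. No test was made of these shares, since Nfe2l2 sets them.

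In the small Maf pool, Mafk was the main transcript in all 7 libraries, at 56.4% to 60.6% in NTG and 60.5% to 68.7% in mNrf2-TG. Behind it Maff and Mafg changed places. Maff held 29.6% to 32.5% of the pool in NTG hearts and 11.8% to 17.7% in mNrf2-TG, whereas Mafg held 8.10% to 12.1% and 19.5% to 24.4%. The ratio of Maff to Mafg was 2.67, 2.60, 4.01 and 3.55 in NTG and 0.810, 0.530 and 0.606 in mNrf2-TG. With coding length its means were 1.54 and 0.311, beside 3.21 and 0.648 with merged exons, and Maff held 22.1% ± 1.06 and 9.08% ± 2.09 of the pool, Mafg 14.8% ± 2.70 and 29.3% ± 3.07, and Mafk 63.1% ± 2.30 and 61.6% ± 4.05 (SD, n = 4 and 3). The summed level of the 3 small Mafs was 33.1 ± 4.36 in NTG and 27.1 ± 5.21 in mNrf2-TG, and the groups overlapped.

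**Figure D3:**
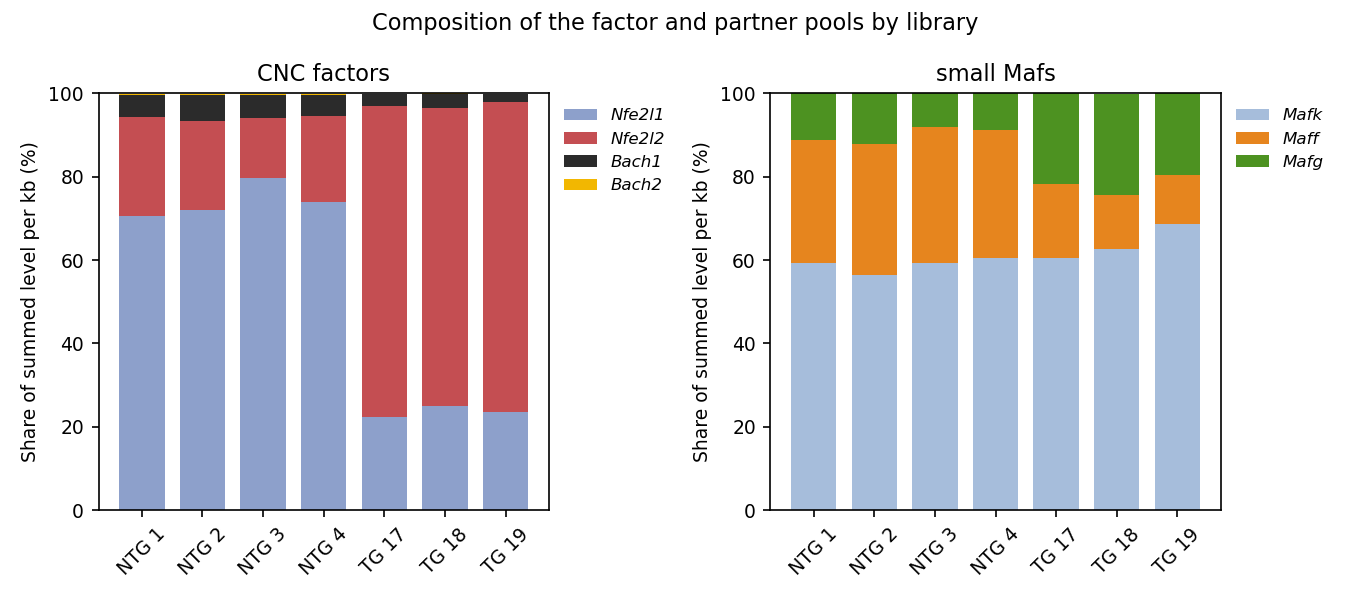
Stacked bars of the percentage of the summed level per kilobase contributed by each gene, in each of 4 NTG and 3 mNrf2-TG (TG) libraries, for the CNC factors and the small Mafs. Nfe2l1 fills most of the NTG bars and Nfe2l2 most of the mNrf2-TG bars, and Mafg (green) is wider and Maff (orange) narrower in mNrf2-TG.

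The balance of activators and repressors was taken as a ratio of RNA levels within each library, with Nfe2l1 and Nfe2l2 summed over Bach1 and Bach2. Protein is not part of these data, and each ratio joins reads from all cells of the heart, so it does not give the balance of the proteins in a cell. The ratio was 16.5, 14.1, 16.3 and 17.2 in NTG and 33.4, 27.9 and 49.6 in mNrf2-TG, a 2.25-fold difference of the geometric means. The ratio did not overlap between groups, and mNrf2-TG 19, with the lowest Bach1, held the highest value. Nfe2l2 over Bach1 alone was 4.32, 3.39, 2.68 and 4.03 in NTG against 26.9, 21.5 and 40.9 in mNrf2-TG, an 8.09-fold difference, beside the 10.3-fold rise of Nfe2l2 itself. No test was made of these ratios, since Nfe2l2, with the reads of the transgene, is in their numerator.

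Partners were then set against each side. Activators over small Mafs, with Nfe2l2 again in the numerator, stood at 6.45, 5.94, 4.34 and 5.58 in NTG and at 16.9, 18.9 and 24.4 in mNrf2-TG. Small Mafs over repressors stood at 2.56, 2.37, 3.75 and 3.09 in NTG and at 1.98, 1.48 and 2.03 in mNrf2-TG, so that the groups were apart here too, by 0.626-fold. Neither the summed small Mafs nor the summed repressors (11.5 ± 1.71 and 15.1 ± 3.85) were apart by themselves. The level of such a ratio depends on which length divides the counts: with coding length, activators over small Mafs had a mean of 1.56 in NTG and 4.96 in mNrf2-TG, while the fold between the groups, 3.59 with merged exons, was 3.17.

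**Figure D4:**
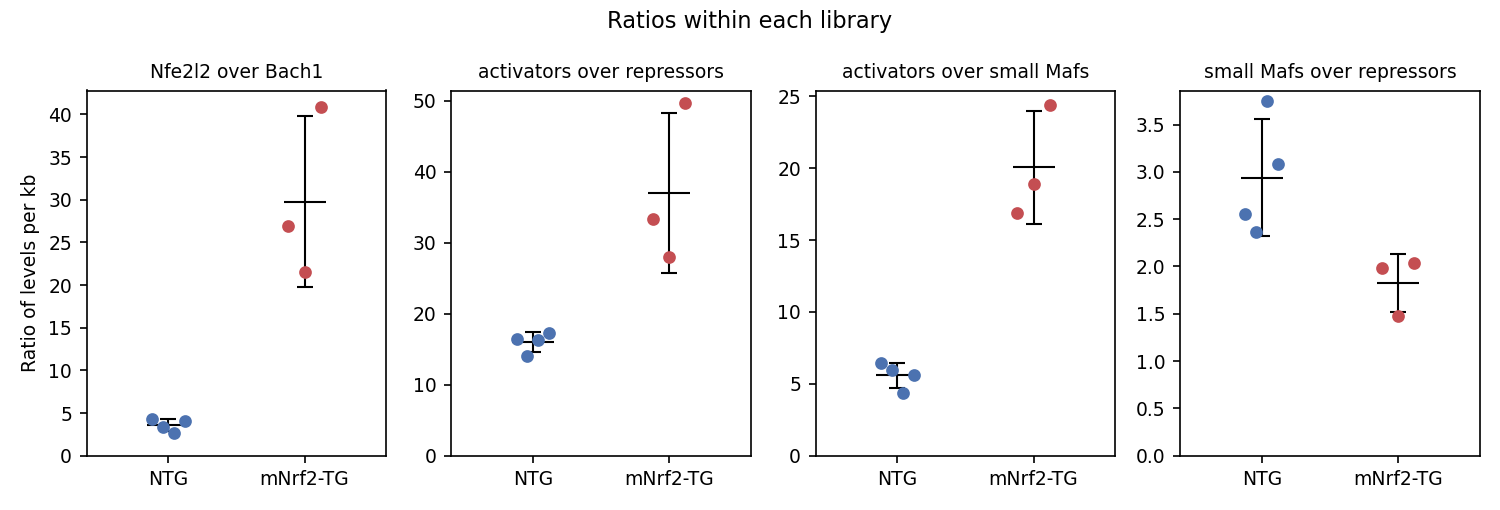
Ratios of summed levels per kilobase within each library (points) with mean ± SD (black), for 4 NTG and 3 mNrf2-TG mice, each axis starting at 0. Groups are apart in all 4 panels. The first 3 ratios are higher in mNrf2-TG, and each has Nfe2l2, with the reads of the transgene, in its numerator. The ratio of small Mafs to repressors is lower.

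Genes around the factors were described by lists, with edgeR's calls over all genes. The lists were chosen with earlier results of these data known. Of all genes tested, 17.2% were called, 8.48% higher and 8.73% lower, and the counts below stand beside these shares. Of the CNC and large Maf relatives, which can compete for the same partners or sites, 0 of 4 passed, and at an unadjusted p under 0.05 the number was also 0. The large Maf factor Maf, known from macrophages and lymphocytes, had a Log2FC of 0.40 (adjusted p = 0.228). Nfe2, the CNC factor of the blood lineage, had 0 to 2 counts per library and Mafa 0 to 3. Without NTG 3, Maf had a Log2FC of 0.67 and an adjusted p of 0.00554, and DESeq2 and limma-voom did not call it.

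Of 12 genes that control the turnover of Nrf2, 4 rose and 1 fell. Keap1, the adaptor that presents Nrf2 for degradation, rose from 336.5 ± 8.28 to 472 ± 31.4 normalized counts (Log2FC 0.49, adjusted p = 0.00306). Cul3, the scaffold of the same ligase, fell from 1748 ± 66.8 to 1184 ± 19.7 (Log2FC -0.56, adjusted p = 5.98e-04). Sqstm1, the autophagy receptor that binds Keap1, had a Log2FC of 0.45 (adjusted p = 0.0248), and Amer1, a Keap1-binding protein, one of 0.87 (adjusted p = 0.028). Both were less firm: the adjusted p of Sqstm1 reached 0.0951 without mNrf2-TG 18 and 0.0863 without mNrf2-TG 17, and Amer1 lost its call without NTG 1, 2 or 4 or mNrf2-TG 17 or 18, with an adjusted p up to 0.106. Without mNrf2-TG 17 or 18, 3 genes of the list were called. In the arm that degrades Nrf2 after phosphorylation, the adaptor Skp1 rose (Log2FC 0.40, adjusted p = 0.00889), and Gsk3b (-0.01) and Cul1 (-0.15) did not pass.

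Of 10 genes that process Nrf1, 1 rose and 3 fell. Vcp, the ATPase that extracts Nrf1 from the endoplasmic reticulum, had a Log2FC of 0.33 (adjusted p = 0.0176), and Ddi2, the protease that cleaves it, one of -0.74 (adjusted p = 0.00731). Hcfc1, which with Ogt stabilises Nrf1, was at -0.24 and the deubiquitinase Usp15 at -0.23. Of these 4, only Ddi2 held in all 14 alternatives. Hcfc1 lost its call with the library total alone and without any 1 of the 7 libraries (adjusted p up to 0.159). Usp15 lost it with the library total alone and without NTG 1 or 2 or any mNrf2-TG library (up to 0.0937), and Vcp without mNrf2-TG 17 (0.0558) or 18 (0.0655). The list then held 1 to 3 called genes over the left-out libraries. Ogt (0.12) and Sel1l (0.10) did not pass.

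Among 7 genes that degrade or export Bach1, 2 rose and 0 fell. Skp1, named above with the Nrf2 genes, was one of them. Rbck1, a ubiquitin ligase subunit, had a Log2FC of 0.44 (adjusted p = 0.0159), which became 0.0631 without mNrf2-TG 18 and 0.0556 without mNrf2-TG 19. Cul1 (-0.15) and the exporter Xpo1 (-0.22) did not pass, though without NTG 3 Xpo1 had -0.38 with an adjusted p of 0.00503.

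Coactivators, corepressors and other leucine zipper proteins that meet CNC factors moved downward where they moved: 0 of 18 rose and 7 fell, with a median Log2FC of -0.39. Junb (-0.69), Fosl2 (-0.52) and Jun (-0.45), AP-1 subunits, fell, as did the acetyltransferases Ep300 (-0.40) and Crebbp (-0.38) and the coactivator Ncoa3 (-0.41). The number called ranged from 2, without NTG 1, to 7 over the left-out libraries, and without mNrf2-TG 18 it was 4. Junb lost its call without NTG 1 or 4 or mNrf2-TG 18 or 19 (adjusted p up to 0.118), Jun without NTG 1 or 4 or mNrf2-TG 17 or 18 (up to 0.118) and Fosl2 without NTG 1 (0.0549) or mNrf2-TG 19 (0.066). The calls of Ep300, Crebbp and Ncoa3 were not followed one by one over the left-out libraries. Chd6 (-0.15), which binds Nrf2, and Smarca4 (-0.05) did not pass.

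ARE targets, the genes that activator and small Maf pairs turn on, moved most. Of 22 tested, 17 rose and 0 fell, where 8.48% of all genes rose, and the list had a median Log2FC of 0.92. Srxn1, which repairs peroxiredoxins, had 3.79, Nqo1, a quinone reductase, 3.28, Gclm, the modifier subunit of glutathione synthesis, 2.68, and Esd, an esterase, 2.65. Gclc, the catalytic subunit beside Gclm, had -0.02, and Ugdh -0.34, and neither passed. The summed normalized counts of the list were 9707, 9945, 9383 and 9095 in NTG and 35010, 33750 and 27180 in mNrf2-TG. Library 19, the lowest of its group here, was also the lowest in Bach1 and in all 3 small Mafs but not in Nfe2l2.

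Genes that Bach1 is known to repress were described next, all of heme and iron handling except Trim16. Activators and Bach1 bind overlapping sites, and the part of each in the changes of these genes was not tested. Of 10, 5 rose and 0 fell, with a median Log2FC of 0.38. Blvrb, a biliverdin reductase, had 2.31 (adjusted p = 2.29e-07), Trim16 1.64 (adjusted p = 2.86e-04), the ferritin light chain Ftl1 0.66 and the iron exporter Slc40a1 0.62, and the ferritin heavy chain Fth1 was the other called gene at 0.40. Hmox1, heme oxygenase and the best known Bach1 target, had 161 ± 78.1 normalized counts in NTG hearts against 128 ± 41.9 in mNrf2-TG (Log2FC -0.34, adjusted p = 0.565). Slc48a1 (0.06) and Fech (0.11) did not pass. Ftl1 lost its call without mNrf2-TG 17 (0.0696) and 18 (0.0651), and Slc40a1 without mNrf2-TG 17 (0.0899) and 19 (0.0715), and the list then held 3 called genes without mNrf2-TG 17.

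Proteasome genes, known as targets of Nrf1, showed small changes in both directions. Of 34, 4 rose and 6 fell, and the median Log2FC was -0.11. Psma5 (0.71) and the assembly factor Pomp (0.38) rose, and the catalytic subunit Psmb2 (-0.43) and the ATPase Psmc6 (-0.43) fell, each in all 14 alternatives. The summed list gave 30700 to 32000 normalized counts in NTG hearts and 29530 to 30630 with the transgene. Psmd2 (-0.11) and Psmd1 (-0.19), the most counted of those not called, did not pass in edgeR, and DESeq2 called Psmd1 (adjusted p = 0.0495). Without mNrf2-TG 19, 6 genes of the list were called.

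**Figure D5:**
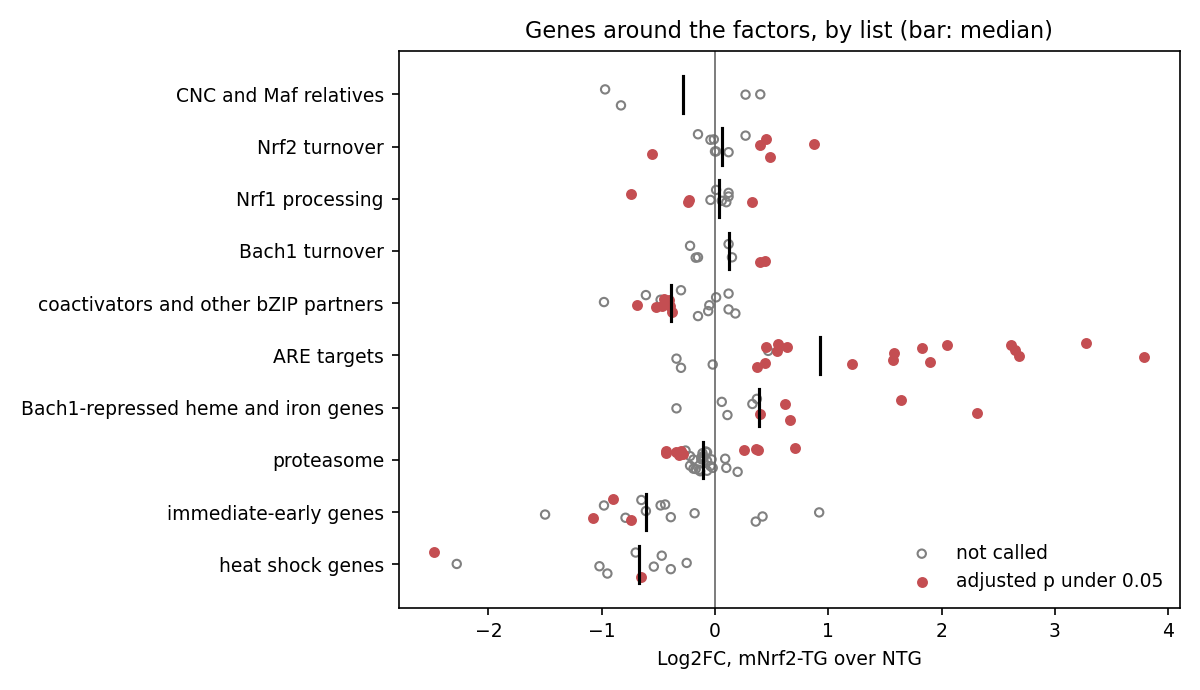
Log2FC of mNrf2-TG over NTG (horizontal axis) for each gene of 10 lists (rows), filled red at an adjusted p under 0.05 and open otherwise, with a black bar at each list's median. ARE targets lie mostly to the right with a median of 0.92, coactivators and other leucine zipper partners to the left with -0.39, and proteasome genes around -0.11.

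Because Maff and the AP-1 genes answer to stress and handling, immediate-early and heat shock genes were set beside them. Of 15 immediate-early genes, 0 rose and 3 fell, namely Zfp36 (Log2FC -1.08), Klf4 (-0.90) and Dusp1 (-0.74), with a median of -0.61. Of all genes tested, 8.73% fell at this threshold. Over the 15 listed genes the Log2FC ran from -1.5 to 0.92, so that some went the other way without passing. Their sums were 3964, 4000, 6691 and 4888 normalized counts in NTG hearts and 3472, 3218 and 2925 in mNrf2-TG. NTG 3, highest in Maff and Mafk, was also highest in this sum, and libraries 17, 18 and 19 had the same order in Maff, in Mafk and in the sum. Ccn1 (-0.65) and Btg2 (-0.79) did not pass, and without NTG 3 they were at -0.01 and -0.19. Without NTG 3, 5 immediate-early genes were called and Maff had a Log2FC of -1.29 (adjusted p = 0.00333, edgeR). The sums of the remaining NTG libraries also lay above every mNrf2-TG sum. The part of handling in the fall of Maff was not tested.

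Heat shock genes had a median of -0.67, with 0 of 10 higher and 2 lower, Hspa8 (-0.65) and Hspa1b (-2.48). Hspa1b lost its call in 7 of 14 alternatives, limma-voom (adjusted p = 0.17) and every left-out library except NTG 3, with an adjusted p up to 0.141 among these. Hsp90ab1 (-0.39) and Hspd1 (-0.25) did not pass, and without NTG 3 they did, with adjusted p of 0.00568 and 0.00474. DESeq2 also called Hsp90ab1 (adjusted p = 0.0305). The sums ran from 31960 to 52700 in NTG hearts and from 26300 to 33370 in mNrf2-TG hearts, which overlapped, since NTG 3, the lowest NTG library in Nfe2l2, was also the lowest in this sum. In the remaining marker lists, endothelial genes gave 1 higher and 2 lower of 7, and smooth muscle, red blood cell, platelet and T cell genes gave 0 calls in edgeR, with Hbb-bs of the red blood cell list at an unadjusted p of 0.0151. The smooth muscle sums were 1669, 1675, 8669 and 2632 in NTG 1 to 4 and 9953, 9040 and 5973 in mNrf2-TG 17 to 19. NTG 3 thus stood among the mNrf2-TG libraries and far above the other NTG libraries, but most of the sum is Acta2, smooth muscle actin, with up to 7707 counts in an NTG library and a Log2FC of 1.37 (adjusted p = 0.163). The other members, Myh11 (-0.10), Tagln (-0.10) and Cnn1 (-0.19), did not pass either, and the list's median was -0.10. The part of the Acta2 difference in the values of Maff, Mafk and Nfe2l2 in NTG 3 was not tested.

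The genes whose log2 CPM over the 7 libraries ran closest to each called member were named as a description. For Nfe2l2 these were Gsta5, Gsta4 and Nadk2 (Pearson r of 0.997, 0.997 and 0.996), among 12069 genes, of which 609 exceeded 0.9. Maff ran closest to Syt12 (0.996), Spry4 (0.990) and Taf7 (0.989), and Mafg to Ppp2r3a (0.990), Pmpcb (0.989) and Zfp367 (0.982), with 261 and 187 genes above 0.9. The points share the 2 groups, so that any gene with a clear difference between them scores high. Syt12 fell from 29.2 to 4.46 normalized counts, and Zfp367 rose from 250.1 to 420.6.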

How the data were processed

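Poly(A)-selected RNA was sequenced as single reads, 1 library per mouse. The authors aligned reads with Novoalign 2.08.01 (their methods name both hg19 and mm10) and deposited counts per gene without normalization. The library kit was a stranded one, but the program that counted reads and its use of strand are not given in the sources used here. The deposited rlog values, regularized log2 values from DESeq2 1.32.0, and the deposited signal column of mean normalized counts served for checks. The authors' fold changes, p-values and gene positions were not used. Of 14665 entries, 24 repeats of a gene were dropped.

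The members and lists were chosen with earlier results of these data known. Groups came from the genotype labels. Genes with a summed count above 1 (14637) were tested in edgeR 4.0.16 (R 4.3.3; TMM, quasi-likelihood, no covariate) with Benjamini-Hochberg adjustment over all genes. Normalized counts were scaled to the mean library size, 7526178. Fold intervals (95%) took the normal quantile times the standard error, which is narrower than the quasi-likelihood test itself. Levels used merged exons of GENCODE M21 (GRCm38). Named are the members, Keap1, at most 4 called genes per list with the largest change and 10 counts throughout the higher group, the 2 most counted others, and 3 genes most like each called member (prior count 2, mean count at least 10). Fth1, Hmox1, Nfe2, Mafa, Ep300, Crebbp and Ncoa3 were added after their values were seen, and some genes that the rule names are not reported here. Alternatives were DESeq2 1.42.0, limma-voom 3.58.1, DESeq2 size factors, the library total alone, filterByExpr, at least 10 counts throughout 1 group, no filter, other lengths, and leaving out each library. Python 3.11.15, pandas 2.3.3 and matplotlib 3.10.9 made tables and plots.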

Additional observations from a re-analysis of the deposited data

Results flagged for a closer look

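In 7 of 71 groups of 4 NTG values, 1 library stood far from the other 3 by Dixon's criterion, and chance alone does this in about 1 in 20 groups. For Mafk, NTG 3 had 688.8 normalized counts, with the others between 529.8 and 537.6. NTG 3 also stood apart in Xpo1, at 406.3 below 697.5 to 733.2, in Ccn1, at 2042 above 567.8 to 712.8, and in Btg2, at 1334 above 392.4 to 486.9. NTG 2 stood apart in Fosl2, at 346.5 below 432.0 to 447.1, and in Psma5, at 208.8 above 192.8 to 195.4. For Vcp, NTG 4 had 1737, below the others at 2012 to 2051.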

How the results depend on the processing

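Nfe2l2 and Maff were called in all 14 alternatives of test, scale, filter and left-out library, Mafg in 13, Bach1 in 1, and Nfe2l1, Bach2 and Mafk in 0. The number of members called was 2 to 4 over the left-out libraries and 3 otherwise. The number of all genes called, 2519, was 1373 to 2950 over the left-out libraries, lowest without mNrf2-TG 17. Gclc turned from -0.02 to 0.01 with the library total alone and ran from -0.13 to 0.07 over the left-out libraries. Gsk3b turned from -0.01 to 0.02 with the library total alone and ran from -0.07 to 0.04 over the left-out libraries. Of 21 pairs of members, the order of NTG levels was kept in 20 with the longest transcript as length, in 18 with coding length and in 20 to 21 over the left-out libraries, and that of mNrf2-TG in 20 with coding length. With coding length Mafk exceeded Nfe2l2 and both Maff and Mafg exceeded Bach1 in NTG. The NTG mean of activators over repressors was 18.9 with the longest transcript and 12.2 with coding length, that of Nfe2l2 over Bach1 5.25 and 2.74, and with coding length small Mafs over repressors were 8.00 and activators over small Mafs 1.56. The differences in these ratios between groups kept their direction. No paired analysis was possible because the replicate numbers of NTG (1 to 4) and mNrf2-TG (17 to 19) share none. Depth limits Bach2, whose spread was that of counting.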
